A study of Mus musculus with 4 samples.

Results

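Homeobox genes encode transcription factors that hold DNA through a homeodomain, and those that lie outside the Hox clusters were followed here between 2 tissues of the early urogenital system. One was metanephric mesenchyme (MM), from which kidney nephrons arise. The other was intermediate mesoderm (IM), the embryonic source of kidney and gonad. Members were the probes whose gene symbol on the array's annotation belongs to the Nkx, Dlx, Msx, Pitx, Irx, Emx, Meis, Pbx, Lhx, Lmx1, Pou, Alx, Prrx, Cdx, En, Gbx, Otx, Barx, Isl, Phox2, Tgif, Zeb or Zfhx families, with Lhx1 and Pou5f1 left out. There were 78 such genes among 15096 named on the array, read by 85 of its 22702 probes. Both tissues were dissected from mouse embryos of both sexes at 10.5 days post coitum, with no strain, allele or treatment named. Amplified RNA of the 2 tissues was hybridised together on 4 two-colour oligonucleotide arrays, with MM in channel 1 on arrays 1 and 2 and in channel 2 on arrays 3 and 4. On arrays 3 and 4 the source names swap the nouns (Intermediate Mesenchyme and Metanephric mesoderm) and were read as the same 2 tissues. Whether the 4 arrays hold separate dissections or pools is not given, so the p-values cover the spread among the 4 hybridisations, which may be technical.

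Factors of this kind mark position and cell type in the embryo, and many families are known for one region: Emx2 for the urogenital system, Pitx1, Prrx1 and Alx4 for limb mesenchyme, Cdx genes for the tail end of the body, Otx, En, Lhx and Pou3f genes for the nervous system and Nkx2-5 for the heart. Meis and Pbx proteins belong to the TALE class, whose homeodomain carries a three-residue loop extension, and act as DNA-binding partners of Hox and other homeodomain proteins. Zeb factors combine a homeodomain-like region with zinc fingers and repress epithelial genes such as the one for E-cadherin.

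Values are log2 ratios, likely MM over IM, so that a positive value means more RNA in MM; the labels make this direction likely but do not state the dye of each channel. The lowest value, -6.64, stands for a ratio of 0.01 and is a floor, not a measured fold. Arrays 1 and 2 gave 82 and 83 values for the members and none at the floor. Arrays 3 and 4 gave 57 and 55, of which 10 and 7 were at the floor. A ratio from whole tissue cannot tell fewer cells of a type from less RNA per cell. Of 8 measured markers of MM itself, 4 were higher in MM (among them Six2, at 3.00 ± 0.63, and Gdnf, at 1.92 ± 0.13, SD, n = 4), 1 was lower (Wt1, at -1.57 ± 0.02) and 3 did not pass. By the same fit, described below, 23.8% of all tested probes were higher and 38.1% lower.

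Of the 85 member probes, 45 had a value on all 4 arrays and were tested, and 39 of these never reached the floor. A probe was called when limma's Benjamini-Hochberg adjusted p, over all 14184 tested probes, was under 0.05 in a fit with a term for channel orientation. The spread in that fit comes only from the pairs of arrays with the same orientation. In this fit 10 members were higher and 20 lower in MM, 6 of the lower ones resting on floor values. Calls were as common elsewhere: 61.9% of all tested probes were called, 23.8% higher and 38.1% lower. A call was held to be firmer when limma also passed it with no orientation term, which 12 members did, 5 higher and 7 lower, against 28.0% of all tested probes (13.6% higher and 14.4% lower). Among the 39 members above the floor 12.8% were higher in both fits, against 14.6% of all such probes, and 17.9% lower, against 15.4%. All 4 arrays had one sign for 19 of the 39 (48.7%, against 52.6%), the orientation term was called for 15 (38.5%, against 41.2%) and the mean reached 2-fold for 3 (7.69%, against 6.77%), namely Irx2, Lhx5 and Nkx2-5. The shares among the members were thus near those of the whole array. With floor values counted, the median log2 ratio was -0.141 over the 45 tested members and -0.082 over all tested probes. Above the floor it was -0.05 over the 39 members and -0.053 over all such probes.

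The 12 members called in both fits were Nkx2-5, Prrx1, Emx2, Pitx1 and Alx4, higher in MM, and Phox2a, Meis2, Irx3, Pou5f2, Pbx3, Meis3 and Prrx2, lower in MM. All of them had the same sign on every array. For 9 of the 12 the limma call of the fit with the orientation term held with arrays centred or scaled and without each array in turn, as it did without the term on all 4 arrays. Ranges of adjusted p are over these 7 alternatives. With 3 arrays and both fits required, limma called 2, 2, 1 and 0 members without arrays 1, 2, 3 and 4, and 12 to 15 at an unadjusted p under 0.05. Emx2, Pitx1 and Prrx2 lost the call of the fit with the term without some arrays. Most of these differences were small, and Nkx2-5 alone among the 12 reached 2-fold on average.

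Upstream DNA is shown for 6 of these 12: the 3 higher members with an entry, the lower member with the largest fall (Phox2a) and the 2 Meis genes, to set the sides next to each other. RefSeq promoters (build GRCm38.p6) were matched by symbol for 9 of the 12, and each stretch is the 250 bases before the annotated start, read 5′ to 3′ on the gene's strand. Capitals mark TAAT, the core that many homeodomains bind (ATTA on the other strand), and TGACAG, a core bound by Meis and Tgif proteins (CTGTCA on the other strand). TAAT and ATTA overlap where the letters TAATTA occur.
Emx2 (chr19:59458440-59458689, plus strand): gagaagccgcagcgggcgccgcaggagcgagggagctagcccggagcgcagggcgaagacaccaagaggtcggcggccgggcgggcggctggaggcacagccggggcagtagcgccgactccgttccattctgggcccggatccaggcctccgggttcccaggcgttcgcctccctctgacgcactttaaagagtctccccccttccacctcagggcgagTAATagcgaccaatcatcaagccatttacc
Nkx2-5 (chr17:26841566-26841815, minus strand): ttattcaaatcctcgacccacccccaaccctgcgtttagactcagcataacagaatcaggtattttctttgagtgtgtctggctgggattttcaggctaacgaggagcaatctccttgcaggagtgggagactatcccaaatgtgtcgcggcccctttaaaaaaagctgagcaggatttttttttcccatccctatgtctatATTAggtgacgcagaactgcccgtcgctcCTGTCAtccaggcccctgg
Prrx1 (chr1:163313651-163313900, minus strand): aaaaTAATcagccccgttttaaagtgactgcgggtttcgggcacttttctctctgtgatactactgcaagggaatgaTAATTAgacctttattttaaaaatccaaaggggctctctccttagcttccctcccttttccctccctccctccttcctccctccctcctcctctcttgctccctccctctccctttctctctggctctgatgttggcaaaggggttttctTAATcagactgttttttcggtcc
Meis2 (chr2:116064620-116064869, minus strand): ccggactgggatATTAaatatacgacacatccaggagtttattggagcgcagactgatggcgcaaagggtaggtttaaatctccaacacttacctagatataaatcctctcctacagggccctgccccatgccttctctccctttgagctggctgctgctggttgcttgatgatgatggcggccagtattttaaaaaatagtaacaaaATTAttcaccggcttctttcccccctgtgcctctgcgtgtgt
Meis3 (chr7:16175145-16175394, plus strand): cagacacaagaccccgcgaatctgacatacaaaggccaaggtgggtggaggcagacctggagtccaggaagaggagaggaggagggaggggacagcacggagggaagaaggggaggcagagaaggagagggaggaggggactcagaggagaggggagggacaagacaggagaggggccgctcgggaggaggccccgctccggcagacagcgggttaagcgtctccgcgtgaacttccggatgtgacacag
Phox2a (chr7:101818063-101818312, plus strand): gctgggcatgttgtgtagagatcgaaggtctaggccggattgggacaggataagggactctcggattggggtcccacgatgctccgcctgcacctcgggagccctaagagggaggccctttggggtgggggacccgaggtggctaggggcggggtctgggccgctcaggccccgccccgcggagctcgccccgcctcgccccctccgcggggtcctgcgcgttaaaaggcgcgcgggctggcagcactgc

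TAAT occurred in 4 of the 9 matched promoters (Emx2, Nkx2-5, Prrx1 and Meis2) and in 54.9% of all 32851 promoters cut the same way. TGACAG occurred in 1 of the 9, that of Nkx2-5, and in 15.9% of all. The matched promoters not shown, of Irx3, Pou5f2 and Prrx2, held neither. Prrx1 had 4 TAAT matches on the 2 strands together, 2 of them overlapping in one TAATTA. These matches describe letters and were not tested as binding sites.

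**Figure D1:**
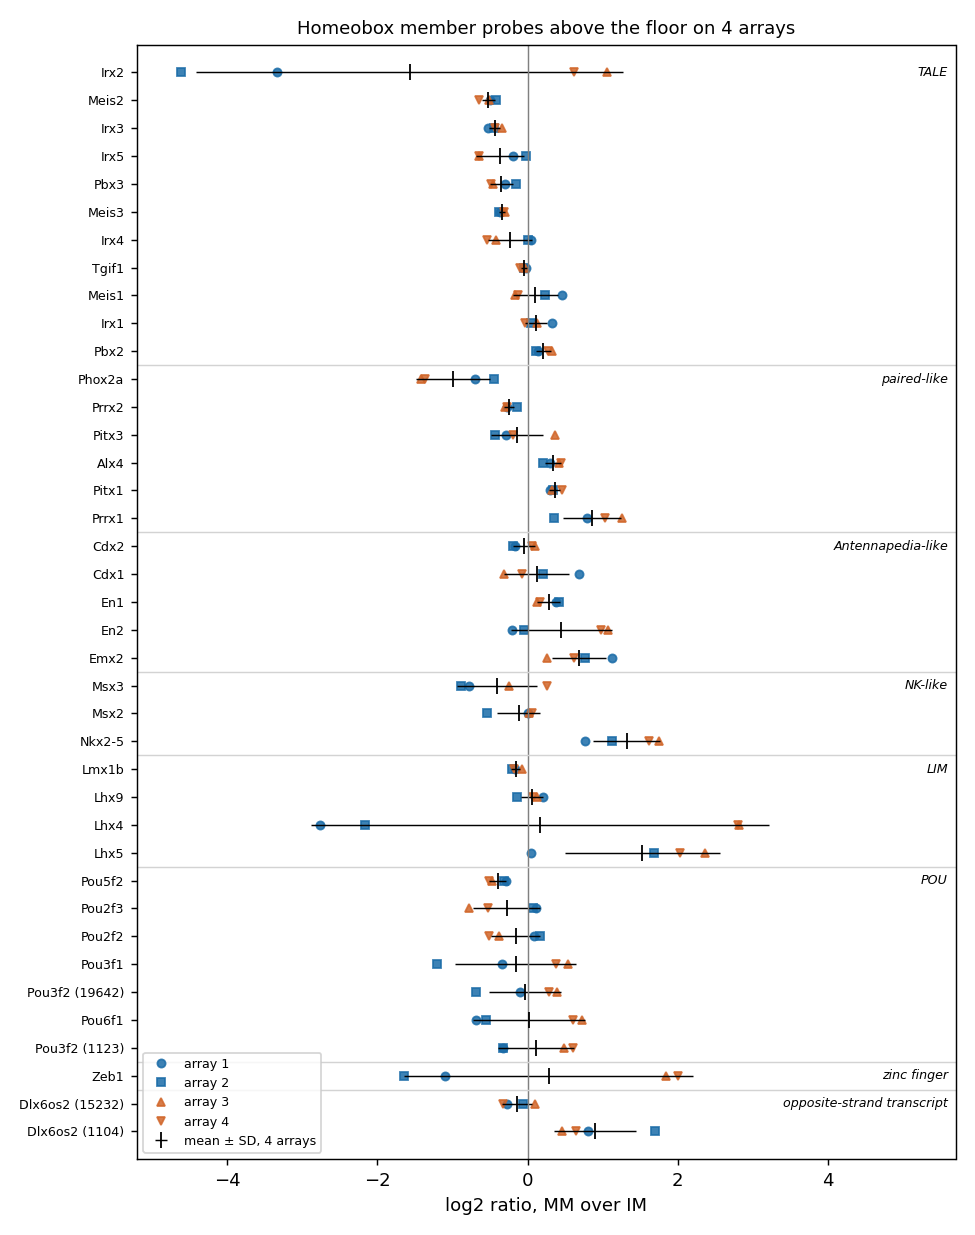
Log2 ratio (MM over IM) of the 39 member probes above the floor on 4 arrays, one row per probe, grouped by structural class. Blue points are arrays 1 and 2, orange points arrays 3 and 4, and bars the mean ± SD; numbers in brackets tell probes of one gene apart. The TALE genes Meis2, Meis3, Irx3 and Pbx3 sit close together on the lower side, while Irx2, Lhx4 and Zeb1 split by colour.

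The TALE class was the best measured and leaned to IM. All 12 of its probes were tested, 1 with floor values, and of the 11 above the floor 7 were lower, 1 was higher and 3 did not pass, with 4 lower in both fits. Among all probes above the floor, 34.5% were lower and 25.6% higher, and 15.4% were lower in both fits. The median log2 ratio of the 11 was -0.34, against -0.053 for all probes above the floor.

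Meis2, a Hox partner with wide expression in mesenchyme, read -0.50, -0.42, -0.51 and -0.64 on arrays 1 to 4. It was 1.43-fold lower in MM (log2 -0.52 ± 0.09, SD, n = 4; limma adjusted p = 0.00273, and 0.00293 to 0.0374 over the alternatives). Meis3 read -0.37, -0.38, -0.30 and -0.31, the narrowest spread of the called members (-0.34 ± 0.04, limma adjusted p = 0.00269, 0.00418 to 0.0311 over the alternatives). Both genes were thus below 0 on every array and in both orientations. Meis1, the family member best known from kidney stroma and limb, did not follow them: it read 0.46, 0.23, -0.17 and -0.13 on arrays 1 to 4 (0.10 ± 0.30, limma adjusted p = 0.193). It passed only without array 2 (limma adjusted p = 0.0482, against 0.0482 to 0.664 over the alternatives). The difference between Meis1 and its relatives was not tested.

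The Pbx genes, whose proteins bind DNA together with Meis and Hox proteins, lay on opposite sides of 0. Pbx3 read -0.30, -0.16, -0.46 and -0.48 and was called lower in both fits (-0.35 ± 0.15, limma adjusted p = 0.00518, 0.00514 to 0.044 over the alternatives). Pbx2 read 0.14, 0.11, 0.32 and 0.27 (0.21 ± 0.10, limma adjusted p = 0.00908). The Pbx2 call was lost without the orientation term (0.0734), without array 3 (0.0617) and without array 4 (0.0516), and the adjusted p began at 0.00544 over the alternatives. Their 4 values did not overlap. Tgif1, a TALE repressor of TGF-beta and retinoid targets, stayed between -0.10 and -0.02 on the 4 arrays and did not pass (-0.05 ± 0.04, limma adjusted p = 0.188); centred arrays gave it 0.01.

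Iroquois (Irx) genes lie in 2 clusters of 3 neighbours each. In the cluster of Irx3, Irx5 and Irx6, Irx3, a factor of nephron segments and many other tissues, read -0.52, -0.45, -0.34 and -0.44 and was 1.36-fold lower in MM (-0.44 ± 0.07, limma adjusted p = 0.00298, 0.00309 to 0.0347 over the alternatives). Its neighbour Irx5 was below 0 on each array too, at -0.19, -0.02, -0.64 and -0.64, and passed with the orientation term alone (-0.37 ± 0.32, limma adjusted p = 0.00615, and 0.146 without the term). Irx6 was at 2.42 and 3.34 on arrays 1 and 2 and at the floor on arrays 3 and 4. Its call as lower (limma adjusted p = 0.00449) therefore goes against the sign of both measured values.

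In the other cluster no gene passed both fits. Irx1, a factor of the nephron and heart, read 0.33, 0.04, 0.12 and -0.03 (0.11 ± 0.15, limma adjusted p = 0.234). Irx4, a ventricle factor, was near 0 on arrays 1 and 2 and lower on arrays 3 and 4 (-0.23 ± 0.29, limma adjusted p = 0.0118, 0.0167 to 0.295 over the alternatives). Its call was lost without array 1, 2 or 4 and without the orientation term. Irx2 turned over between orientations, reading -3.34, -4.62, 1.06 and 0.62. Its mean of -1.57 ± 2.84 was called (limma adjusted p = 0.0158), but not without the orientation term (0.427), without array 3 (0.0696) or without array 4 (0.0852); the lowest alternative gave 0.0188.

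Paired-like factors were all tested, and 5 of the 6 probes above the floor passed both fits, 3 higher and 2 lower, where 14.6% and 15.4% of all probes above the floor did. Prrx1, a factor of limb and craniofacial mesenchyme, read 0.79, 0.35, 1.26 and 1.03 and was 1.81-fold higher in MM (0.86 ± 0.39, limma adjusted p = 0.00702, 0.00511 to 0.0486 over the alternatives). Pitx1, which sets hindlimb identity, read 0.30, 0.34, 0.33 and 0.46 (0.36 ± 0.07, limma adjusted p = 0.00535). Its call was lost without array 1 (0.0534) or array 2 (0.0562), with 0.00389 as the lowest over the alternatives. Alx4, which acts in the anterior limb bud, read 0.30, 0.21, 0.42 and 0.44 (0.34 ± 0.11, limma adjusted p = 0.00385, 0.00321 to 0.0377 over the alternatives). These 3 limb factors were thus higher in MM on every array. Prrx2, the close relative of Prrx1, was lower: it read -0.27, -0.14, -0.30 and -0.27 (-0.25 ± 0.07, limma adjusted p = 0.0117), and lost its call without array 3 (0.0724) or array 4 (0.0665), the lowest alternative being 0.0111. The values of the 2 Prrx genes did not overlap.

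Phox2a, a factor of autonomic and noradrenergic neurons, had the largest fall among the members called in both fits. It read -0.70, -0.45, -1.42 and -1.37, and was 1.98-fold lower in MM (-0.99 ± 0.49, limma adjusted p = 0.00165, 0.00135 to 0.041 over the alternatives). The sign was shared by both orientations although the size was not. Pitx3, a factor of lens and midbrain neurons, did not pass (-0.14 ± 0.34, limma adjusted p = 0.357). Otx1 and Otx2, factors of the forebrain and midbrain, read 3.10 and 3.24, and 2.55 and 0.57, on arrays 1 and 2, and both stood at the floor on arrays 3 and 4. Their calls as lower (limma adjusted p = 0.000406 and 0.0125) rest on the floor, and without the orientation term they did not pass (0.674 and 0.448).

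Of the limb and craniofacial mesenchyme list, 8 of 13 genes were measured: 3 were higher (Prrx1, Pitx1 and Alx4), 3 lower (Prrx2, Lmx1b and, at the floor, Dlx6) and 2 did not pass. In both fits it was 3 higher and 1 lower. All tested probes were 23.8% higher and 38.1% lower, and 13.6% and 14.4% in both fits. The list's median log2 ratio was -0.028, with the floor values of Dlx6 counted. A list of other limb genes, made for the hindlimb but holding the forelimb factor Tbx5, was higher for 4 of 5 measured, 3 in both fits, against 25.6% and 14.6% of all probes above the floor: Hoxd13 (5.96 ± 1.14), Shh (2.81 ± 1.44), Tbx5 (1.81 ± 0.94) and, with the orientation term alone, Hoxa13 (1.64 ± 0.89, limma adjusted p = 0.0159), with a median of 1.81. Fgf8, the ligand of the limb ridge, did not pass (-0.04 ± 0.28, limma adjusted p = 0.674). Tbx4, the hindlimb T-box factor, gave 1.63 and 2.52 on arrays 1 and 2 alone. The measured limb bud markers were 3 of these same genes, Hoxd13, Hoxa13 and Tbx5. The table holds ratios, so the level of these markers in each tissue is unknown, and their part in the values of Prrx1, Pitx1 and Alx4 was not tested.

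Emx2, which the urogenital system needs in order to form, was the 1 called member of the urogenital list above 0. It read 1.12, 0.76, 0.26 and 0.62 and was 1.61-fold higher in MM (0.69 ± 0.36, limma adjusted p = 0.0116, 0.00713 to 0.0888 over the alternatives). Every array was above 0, with array 3 the lowest. The call held with no orientation term (0.0469) but not without array 1 (0.0888), array 2 (0.0645) or array 4 (0.0547). Of the 10 genes on this list 7 were measured, and 1 was higher, 3 were lower and 3 did not pass, with a median of 0.062. In both fits it was 1 higher and 1 lower. Among all probes above the floor 25.6% were higher and 34.5% lower, and 14.6% and 15.4% in both fits.

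The lower calls on this list were Irx3, Irx2 and Lmx1b. Lhx9, a LIM factor of the gonad, read 0.20, -0.14, 0.12 and 0.07 and did not pass (0.06 ± 0.15, limma adjusted p = 0.504). Lmx1b, a LIM factor of podocytes and dorsal limb, read -0.17, -0.21, -0.08 and -0.18, which was called in the fit with the orientation term (-0.16 ± 0.06, limma adjusted p = 0.0252) and in 1 of 7 alternatives (0.0306 to 0.109). Lhx2, a factor of limb, gonad and forebrain, gave 1.35 and 0.40 on arrays 1 and 2 alone. Pou3f3, a POU factor of the nephron and brain, gave -0.10, -0.73 and 0.97 on arrays 1, 2 and 3.

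The other Antennapedia-like genes included the caudal factors. Cdx1 (0.12 ± 0.43, limma adjusted p = 0.401) and Cdx2 (-0.05 ± 0.15, limma adjusted p = 0.185), both factors of the hindgut and tail bud, changed sign between orientations and did not pass. Cdx4 had 1.73 and 3.33 in the first orientation and only floor values in the other, so its call as lower (limma adjusted p = 0.0125) gives no measured size. En1, a factor of the mid-hindbrain, the limb and the dermomyotome, was above 0 on 4 arrays, from 0.13 to 0.42, and passed with the orientation term alone (0.28 ± 0.15, limma adjusted p = 0.00507, 0.0032 to 0.0666 over the alternatives). En2 read -0.21, -0.05, 1.07 and 0.98 (0.45 ± 0.67, limma adjusted p = 0.00459, and 0.347 without the orientation term). Gut endoderm markers were higher for 5 of 7 measured, all 5 in both fits, against 25.6% and 14.6% of all probes above the floor. They were Afp, Ttr, Hhex, Sox17 and Shh, which was also among the other limb genes above. Foxa1, with probes of opposite sign, and Vil1 did not pass. The gut and caudal body list of members gave 0 of 3 measured genes higher and 1 lower, at the floor. Over all tested probes 23.8% were higher and 38.1% lower. The list's median of -0.05 counts the floor values of Cdx4. At limma's unadjusted p under 0.05 the list also had 0 higher and 1 lower.

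Nkx2-5, the cardiac NK factor that is also found in pharynx and distal stomach, showed the largest measured difference among members called in both fits. It read 0.77, 1.13, 1.75 and 1.62 and was 2.49-fold higher in MM (1.32 ± 0.45, limma adjusted p = 0.00186, 0.0016 to 0.0245 over the alternatives). All 4 arrays were well above 0, arrays 3 and 4 more so. Only 3 of the 25 probes of the NK-like class were above the floor on 4 arrays. The heart list had 2 of 4 genes measured, Nkx2-5 higher and Irx4 lower (-0.23), the latter with the orientation term alone. Its median of 0.543 lies between these 2 values of opposite sign. Across all probes above the floor 25.6% were higher and 34.5% lower. Msx2, a BMP-responsive factor, did not pass (-0.12 ± 0.29, limma adjusted p = 0.411), though it did without array 1 (0.0299, up to 0.692 over the alternatives). Msx3, a factor of the dorsal neural tube, read -0.78, -0.88, -0.25 and 0.26 (-0.41 ± 0.53, limma adjusted p = 0.0406) and lost its call with arrays centred (0.0629), without the orientation term (0.279), without array 1 (0.198) and without array 2 (0.228), with 0.0256 as the lowest.

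The rest of the NK-like class had incomplete values. Floor values on arrays 3 or 4 came with positive values on arrays 1 and 2 for Barx1, a factor of stomach mesenchyme (3.15 and 4.09), Nkx2-6, of the pharynx (2.99 and 4.17), Nkx3-2, of somite and gut mesenchyme (1.21 and 2.49), and Nkx1-2, of the tail bud (1.41 and 4.08 by one probe, 3.16 and 1.40 by the other). Dlx6, of limb and jaw, had 0.20 and 0.36 there. The same 2 arrays were the sole source for Nkx2-3, a factor of gut and spleen mesenchyme (3.32 and 4.15), and Msx1, of limb and craniofacial mesenchyme (4.19 and 2.11). Nkx6-2 (1.24 and 1.37), Nkx2-9 (1.66 and 0.68) and Nkx6-3 (0.30 and 0.52) were also positive on these arrays alone. Of the NK-like probes with these 2 arrays alone, 5 were negative on both: Dlx3, Barx2 (-0.96 and -4.16), Nkx2-2 (-1.04 and -0.85), Dlx2 (-0.10 and -0.93) and Nkx1-1 (-0.30 on both). Dlx5, the partner of Dlx6, had 1.36, 1.17 and 1.60 on arrays 1, 2 and 4, so its 3 values were all above 0.

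**Figure D2:**
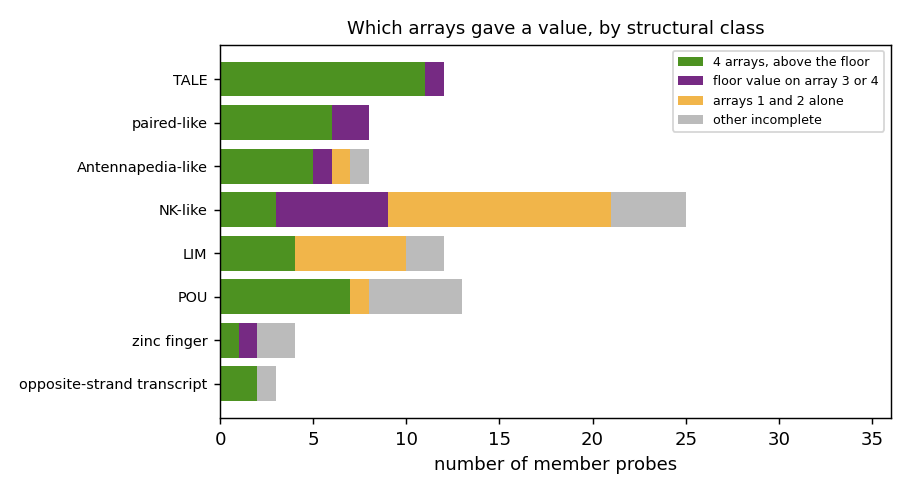
Number of member probes in each structural class, split by which arrays gave a value: all 4 and above the floor, a floor value on array 3 or 4, arrays 1 and 2 alone, or another incomplete set. The NK-like class has 3 of 25 probes in the first group, and the TALE class 11 of 12.

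Missing and floor values were part of the pattern. Values on all 4 arrays were had by 52.9% of the members and by 62.5% of all probes, and 20 members (23.5%, against 18.7% of all probes) had values on arrays 1 and 2 alone. Floor values were found in 11 members (12.9%, against 11.4% of all probes), all of them on arrays 3 or 4. In 10 of these 11 both values on arrays 1 and 2 were positive, where 68.3% of all 2553 probes with such floor values had this. The exception was Zeb2, at -1.16 and 3.64. Among the 20 members with arrays 1 and 2 alone, 8 were positive on both and 8 negative on both, from -4.63 (Dlx3, array 1) to 6.90 (Lhx6, array 2). Arrays 1 and 2 lay a median of 0.83 apart for these 20 and 0.14 apart for the 39 members above the floor, so the sparse members were also the noisier ones.

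LIM-homeodomain genes, most of them factors of motor neurons, interneurons and forebrain, were mostly incomplete, with 4 of 12 probes tested. Lhx5, a forebrain and spinal cord factor, read 0.04, 1.68, 2.36 and 2.03 (1.53 ± 1.03, limma adjusted p = 0.0278). The 4 values were above 0 but spread widely, and the call was lost without array 3 (0.123), without array 4 (0.106) and without the orientation term (0.0813), the lowest being 0.0252. Lhx4, a factor of pituitary and motor neurons, read -2.76, -2.16, 2.82 and 2.80, which left a mean of 0.17 ± 3.05 (limma adjusted p = 0.281). It passed without array 1 alone (0.0183, up to 0.996 over the alternatives). The 2 probes of Lhx6, a factor of cortical interneurons and jaw, disagreed: one gave 6.81 and 6.90 on arrays 1 and 2 alone, and the other gave -1.25, -1.41 and 0.93 on arrays 1, 2 and 3. Isl1, a factor of motor neurons, heart and hindlimb, had values on arrays 3 and 4 alone (0.95 and 0.76), and Isl2 on arrays 1 and 2 alone (-1.59 and -1.61).

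LIM-homeodomain proteins work through shared cofactors, and these went both ways. Of 8 measured on a list of 10, 2 were higher, 4 lower and 2 did not pass, with a median of -0.043. In both fits 2 were higher and 2 lower. The shares of all probes above the floor were 25.6% higher and 34.5% lower, and 14.6% and 15.4% in both fits. Lmo2, the LIM-only protein of blood and endothelium, was higher (0.78 ± 0.36), as was Ssbp3 (0.30 ± 0.05), which stabilises the complex. The adaptor Ldb2 was lower (-0.31 ± 0.03), as was Rlim, the ligase that degrades these cofactors, by 1 probe (-0.87 ± 0.08). The other Rlim probe had positive values on arrays 1 and 2 (2.15 and 0.93) and floor values on arrays 3 and 4. Ldb1, the main adaptor, did not pass (0.03 ± 0.16, limma adjusted p = 0.45).

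POU genes gave 0 members higher in MM by limma, and 1 at an unadjusted p under 0.05. Of 7 tested probes 3 were lower and 4 did not pass, with 1 lower in both fits, against 34.5% and 15.4% of all probes above the floor. That was Pou5f2, a POU factor of the testis, at -0.29, -0.32, -0.47 and -0.51, 1.32-fold lower (-0.40 ± 0.11, limma adjusted p = 0.00217, 0.0031 to 0.0278 over the alternatives). Pou2f3, a factor of epidermis and tuft cells, passed with the orientation term (-0.28 ± 0.44, limma adjusted p = 0.0248, 0.023 to 0.374 over the alternatives), but not without that term or without array 1, 2 or 3. Pou2f2, a lymphoid factor, was called lower by one probe (-0.16 ± 0.33, limma adjusted p = 0.0364, 0.0646 to 0.511 over the alternatives), with 0.08, 0.17, -0.38 and -0.51 on the 4 arrays. Its other probe gave 1.19, 1.76 and 0.75 on arrays 1, 2 and 3.

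Of the neural Pou3f genes, Pou3f4 read 1.18, -0.64 and 0.26 on arrays 1, 2 and 3, while those tested split by orientation. Pou3f1 read -0.34, -1.21, 0.54 and 0.38 (-0.16 ± 0.80, limma adjusted p = 0.491). The 2 probes of Pou3f2 showed the same split, with means of 0.11 ± 0.51 and -0.03 ± 0.48, and neither passed (limma adjusted p = 0.0647 and 0.867); with arrays centred the first did (0.0254). Pou6f1 also split by orientation by 1 probe (-0.68, -0.55, 0.72 and 0.60) and did not pass (limma adjusted p = 0.71). Its other probe had 0.08 and -2.31 on arrays 1 and 2 alone. Pou4f1, a factor of sensory neurons, was negative on arrays 1 and 2 by both probes (-1.58 and -1.33, and -0.58 and -0.69) and slightly positive on the remaining array (0.24 and 0.17).

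Of the nervous system list, 9 of 27 genes were measured: 3 were higher (Lhx5, En1 and En2), 3 lower (Phox2a and, at the floor, Otx1 and Otx2) and 3 did not pass. In both limma fits it was 0 higher and 1 lower (2 and 1 at an unadjusted p under 0.05). The shares of all tested probes were 23.8% higher and 38.1% lower, and 13.6% and 14.4% in both fits. The list's median was 0.042, with the floor values of Otx1 and Otx2 counted. Markers of the neural tube that are not members were lower in MM for 7 of 9 measured, 5 in both fits, with a median of -0.494. Among all probes above the floor, 34.5% were lower and 15.4% lower in both fits. Neurog2 was higher with the orientation term alone (0.18 ± 0.17). Sox2, a factor of neural progenitors, read -0.94, -0.96, -0.87 and -0.95, and Elavl4, a neuronal RNA-binding protein, read -0.66, -0.58, -1.31 and -1.31. Markers of somite and muscle were lower for 6 of 7 measured (1 by floor values), 3 of them in both fits, with a median of -0.669 that counts those floor values. The other, Des, was higher in both fits (0.97 ± 0.13). The part of these markers in the value of Phox2a was not tested.

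Zinc finger homeobox genes had 1 tested probe. Zeb1, a repressor of epithelial genes, read -1.10, -1.64, 1.85 and 2.01 (0.28 ± 1.92, limma adjusted p = 0.112, 0.0557 to 0.858 over the alternatives), so its direction was opposite in the 2 orientations. Zfhx3 was positive on its 3 arrays (1.18, 2.39 and 2.34 on arrays 2, 3 and 4), and Zfhx4 read 0.91, 0.80 and -0.51 on arrays 1, 2 and 4. Epithelial genes that Zeb factors are known to repress were higher in MM for 8 of 10 measured, 4 in both limma fits, and 0 were lower (0 also at an unadjusted p under 0.05), against 25.6% higher and 14.6% in both fits of all probes above the floor, with a median of 0.556. The 4 in both fits were Cldn6 (2.10 ± 0.77), Epcam (1.87 ± 0.06), Cldn7 (1.36 ± 0.36) and Cldn3, a tight junction protein (0.31 ± 0.01). Esrp1, an epithelial splicing factor, passed with the orientation term alone (0.54 ± 0.41). Cdh1, the E-cadherin gene, read -0.35, -0.07, 2.76 and 2.94, higher on the same 2 arrays as Zeb1.

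Groucho and CtBP corepressors, which many of these factors recruit, went both ways. Of 7 measured on a list of 9, 1 was higher (Ctbp1, at 0.27 ± 0.12), 2 were lower (Tle6, at -0.80 ± 0.33, and Tle5, at -0.38 ± 0.34), 1 had probes of both signs (Tle4, at 0.82 ± 0.49 and -0.48 ± 0.29) and 3 did not pass. In both fits it was 1 higher and 1 lower, with a median of -0.089. The shares of all probes above the floor were 25.6% higher and 34.5% lower, and 14.6% and 15.4% in both fits.

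The rule also took in 3 probes for RNAs transcribed opposite to a homeobox gene. One probe for Dlx6os2, which runs opposite to Dlx6, read 0.81, 1.70, 0.46 and 0.64 (0.90 ± 0.55, limma adjusted p = 0.0231). It lost its call without the orientation term (0.066), without array 3 (0.0938) and without array 4 (0.11), with 0.0202 as the lowest. The other probe annotated to it stayed near 0 (-0.14 ± 0.20, limma adjusted p = 0.284), so the 2 probes disagreed. The other RNA had values on 3 arrays, of both signs.

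**Figure D3:**
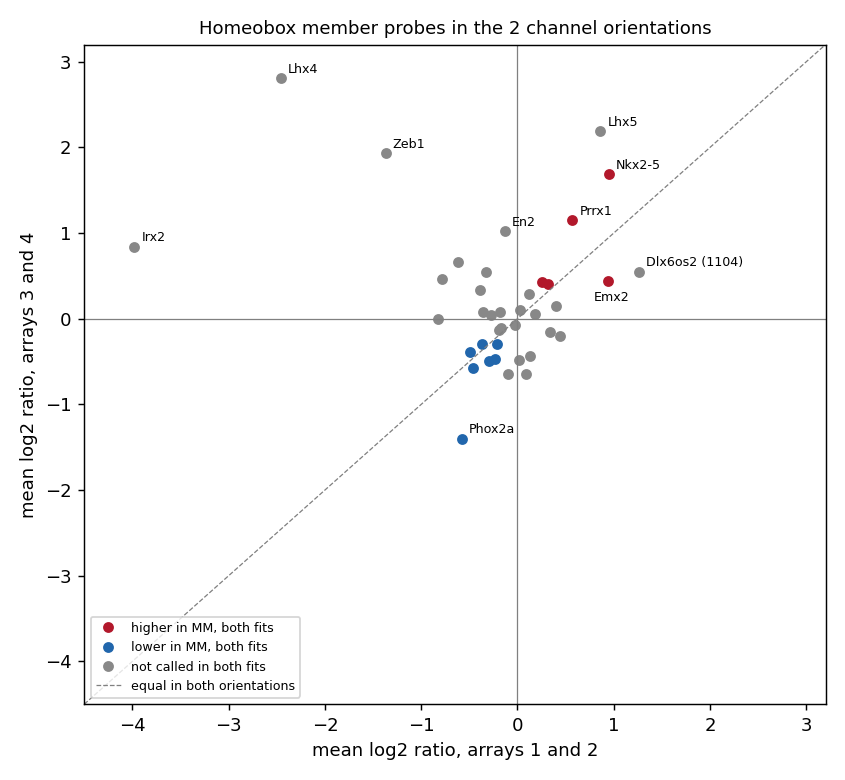
Mean log2 ratio on arrays 1 and 2 against that on arrays 3 and 4 for the 39 member probes above the floor; colours mark calls in both fits and the dashed line equal values. The 12 called members have the same sign on both axes, and Lhx4, Zeb1 and Irx2 lie far in the upper left.

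The spread over arrays was wide among the members. The median SD over the 4 arrays was 0.32 for the 39 members above the floor and 0.204 for all such probes. The 2 orientation means had opposite signs for 17 of the 39 (43.6%, against 39.0% of all such probes). For 12 of these 17 the mean was negative on arrays 1 and 2 and positive on arrays 3 and 4, and for 5 the reverse. The whole array leaned the same way, with 3226 probes above the floor in the first direction and 1915 in the reverse. Across the 39 members, which are not replicates and share the 4 arrays, Pearson's r reached 0.893 for arrays 1 and 2 and 0.971 for arrays 3 and 4, but was -0.277 to -0.088 between orientations, where all probes gave 0.113 to 0.274. Without Irx2, Lhx4 and Zeb1, chosen after their values were seen, r between orientations was 0.357 to 0.535 over 36 probes. The negative values thus rest on these 3 probes.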

How the data were processed

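The authors deposited a log2 ratio for each probe on each array. Per the labels, they quantified spots with Imagene 5.5, reversed the channels of arrays 3 and 4, fitted a Lowess curve with 20.0% of the data at each point, and set control values under 10 to 10. For background correction and filters the sources used here give nothing. Base 2 was inferred, since 98.9% to 100.0% of ratios under 1 then lay on thousandths (tolerance 0.01). Signal over background is unknown. Probe symbols came from the platform annotation and RefSeq (83 of 85 members matched by gene ID, 0 renamed).

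Probes with 4 values were fitted with limma 3.58.1 (R 4.3.3), with a term for channel orientation, and adjusted by Benjamini-Hochberg. The fit was tested on simulated data. Members and gene lists were chosen with earlier results of these data known. Values were given, by a fixed rule, for called members of at least 2-fold, the best-called probe of each class and direction, urogenital genes, probes that disagree and members at the floor; other members were named after their values were seen. Means are ± SD over 4 arrays.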

Additional observations from a re-analysis of the deposited data

Results flagged for a closer look

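One array stood apart from the other 3 for 1 of the tested members. Msx2 read -0.54 on array 2, with the other arrays close to 0, and without that array its mean was 0.02. Such a gap is met by chance in about 1 of 20 groups of values.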

How the results depend on the processing

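In limma, 10 members were higher, 20 lower and 12 called in both fits. These counts stayed within 1.5 times with floor values missing, with 3 or more values, with arrays centred or scaled and with array weights. The number tested changed in some of these settings: with 3 or more values, 8 of 63 were called in both fits, against 12 of 45. Without the orientation term 5 were higher and 7 lower. On arrays 1 and 2 alone the counts were 6 and 11, and on arrays 3 and 4 alone 10 and 16. With each orientation averaged 0 were higher and 0 lower (1 had an unadjusted p under 0.05), a fit with little power. Leaving out each array in turn gave 6 to 9 higher, 12 to 16 lower and 0 to 2 in both fits (12 to 15 at an unadjusted p). The smallest, 0, came without array 4. With arrays centred, scaled or left out in turn, signs turned for uncalled members alone. On arrays 1 and 2 the called En2 averaged -0.13, Irx4 0.02, Pou2f2 0.13 and Pou2f3 0.09, the 6 members called by floor values were positive, and on arrays 3 and 4 Irx2 averaged 0.84. With arrays centred Cdx2 was 0.01, Tgif1 0.01 and a Pou3f2 probe 0.04, and with arrays scaled Pou6f1 was -0.02. Leaving out each array gave -0.02 to 0.15 for Lhx9, -0.25 to 0.02 for Msx2, -0.38 to 0.06 for Pou3f1, -0.17 to 0.12 for the same Pou3f2 probe and -0.01 to 0.05 for Pou6f1. The cause was not tested. No paired analysis was possible because each ratio already pairs the 2 tissues of its array, which left no further block.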
